A study of Saccharomyces cerevisiae with 11 samples.

Results

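The genes described here are 9 heat shock chaperone genes of budding yeast, taken from 5975 nuclear protein-coding open reading frames (ORFs) analysed. They were chosen by name: 3 genes that are transcribed at high level in unstressed cells (the constitutive genes HSC82, SSA2 and SSA1) and 6 that are strongly induced by heat or other stress (the inducible genes HSP82, SSA4, HSP104, HSP26, HSP12 and HSP42). Each gene was read as a promoter, the stretch of 500 bp ahead of its start codon, and a body, the whole ORF.

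HSC82 and HSP82 encode the Hsp90 chaperones, which help many kinases and other client proteins to mature, and SSA1, SSA2 and SSA4 encode cytosolic Hsp70 chaperones, which bind unfolded stretches of protein. HSP104 encodes a disaggregase that pulls proteins out of aggregates together with Hsp70, HSP26 and HSP42 encode small heat shock proteins that hold misfolded proteins, and HSP12 encodes a small membrane-associated stress protein. Their promoters carry sites for the heat shock factor Hsf1, for the general stress factors Msn2 and Msn4, or for both. Inducible stress genes are a textbook case of promoters whose nucleosomes are displaced during activation, while highly transcribed housekeeping genes keep an open, nucleosome-depleted promoter. Topoisomerases Top1 and Top2 relax the supercoils that transcription leaves in DNA.

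Nucleosomes were mapped with micrococcal nuclease, which cuts between nucleosomes, in 11 libraries from cultures grown in galactose, with no heat shock named in the labels. All cells were BY4742 derivatives carrying Top1-AID and Top2-AID, in which both enzymes bear an auxin-inducible degron tag. The groups were Top1-AID Top2-AID with pADH1-OsTIR1 and 500 uM auxin for 60 min (3 libraries), the same strain left untreated (4 libraries) and the Top1-AID Top2-AID strain without OsTIR1 (4 libraries). OsTIR1, driven by the ADH1 promoter, is the plant F-box protein that lets auxin trigger the destruction of tagged proteins. Each group was digested with 0.1875 U (high dose) or 0.01171875 U (low dose) of nuclease. The treated and untreated OsTIR1 cells were portions of a divided culture, and nothing in the labels says that replicates came from separate cultures, so the p-values below measure the spread between these libraries, which may be technical. Expression was not analysed here, and coverage of DNA cannot check the loss of the Top1 and Top2 proteins.

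The libraries held 9220720 to 31178329 fragments and a mean nuclear coverage of 111 to 332 fragments per base. Values are relative coverage: fragments over a base divided by the library's nuclear mean without the rDNA repeats. For 4 libraries (auxin low replicate 1, auxin high replicate 1, untreated low replicate 2 and untreated high replicate 2) the labelled dose is at odds with the one named by the deposited file itself, and untreated high replicate 2 is at odds in its auxin state as well. Mean fragment length divided the libraries without overlap into 6 short-fragment libraries (129.0 to 140.3 bp) and 5 long-fragment libraries (149.8 to 162.2 bp), and this division matched the doses in the file names. Groups follow the labels here, so the dose comparison used the 7 libraries free of such conflict, and auxin was compared within the short-fragment libraries. These were auxin low replicate 1 and high replicate 2, untreated high replicate 1 and low replicate 2, and both high-dose libraries without OsTIR1. Where a pair of values is given for a state, it follows this order of libraries.

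The 9 genes lie on 8 chromosomes of assembly R64 (sacCer3). HSC82 spans chromosome XIII 632355 to 634472 on the plus strand and HSP82 chromosome XVI 96496 to 98625 on the minus strand. The Hsp70 genes are SSA1 (I, 139503 to 141431, minus), SSA2 (XII, 95566 to 97485, minus) and SSA4 (V, 364589 to 366517, plus). HSP104 lies on XII (88623 to 91349, plus), HSP26 on II (382030 to 382674, plus), HSP42 on IV (806621 to 807748, plus) and HSP12 on VI (107256 to 107585, plus). The promoter windows held no other ORF for 6 genes, but 116 bp of the HSC82 window lay in RTP1, 33 bp of the HSP104 window in ISA1 and 208 bp of the HSP12 window in YFL015C. HSC82 and HSP82 are near-identical copies, as are SSA1 and SSA2, and how fragments matching both copies were placed is not given in the sources used here, so their body values are uncertain to that extent.

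In the short-fragment libraries, 7 of the 9 promoters held a gap, a run of relative coverage under 0.3, and SSA4 and HSP26 held none. Every constitutive gene was among the 7. Such gaps are common: over all 5975 ORFs the lowest promoter point had a median of 0.0870, so most ORFs reach under 0.3. The share of all ORFs with a gap is not given here, so the count does not set the members apart. The gap of HSC82 was 152 bp wide, from 288 to 137 bp upstream of the start codon, and its lowest point reached 0.0534 in the mean of the 6 libraries. HSP82, its inducible paralog, had a gap of 105 bp (272 to 168 bp upstream) with a lowest point of 0.0638. The lowest points ranged over the 6 libraries from 0.0164 to 0.105 at HSC82 and from 0.0361 to 0.0844 at HSP82, so the Hsp90 promoters overlapped in depth.

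Among the Hsp70 promoters the shapes were different. SSA2 had a gap of 142 bp (306 to 165 bp upstream) with a lowest point of 0.0702. SSA1 had a gap of 429 bp, from 655 to 227 bp upstream, with a lowest point of 0.0615. The SSA1 region is shared with EFB1, a translation elongation factor gene that starts 742 bp away on the opposite strand, so the wide gap lies in a divergent promoter. SSA4, the stress-induced Hsp70 gene, had a mean lowest point of 0.369, and in single short-fragment libraries it fell to 0.290 at the lowest with the 21 bp smoothing used for all lowest points. Without smoothing it fell to 0.245 in auxin high replicate 2. It was also under 0.3 in auxin low replicate 1 (0.278), untreated high replicate 1 (0.299) and high replicate 1 without OsTIR1 (0.274).

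The promoter of HSP104 had a narrow gap of 74 bp (296 to 223 bp upstream, lowest point 0.139), and that of HSP42 a gap of 81 bp (293 to 213 bp upstream, lowest point 0.145). HSP26 was covered throughout its 500 bp window, with a lowest point of 0.506. HSP12 was covered over most of its window, and its gap lay at the far end, from 934 to 469 bp upstream. That stretch runs up to MDJ1, a mitochondrial Hsp40 gene on the opposite strand whose start codon is 1019 bp from that of HSP12. Across all 5975 ORFs the median lowest point was 0.0870, with 5th and 95th percentiles of 0.0240 and 0.522. On that scale the lowest points of HSP26 and SSA4 stood at percentiles 94.5 and 90.6, those of HSP42, HSP104 and HSP12 between percentiles 67.1 and 71.2, and those of HSP82, HSC82, SSA1 and SSA2 between percentiles 28.4 and 40.6. The HSP12 point (0.130) lay at the outer edge of the 500 bp window. Its gap ran on beyond that edge, with a median library mean of 0.0826 over the whole gap, so its percentile depends on the window.

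**Figure D1:**
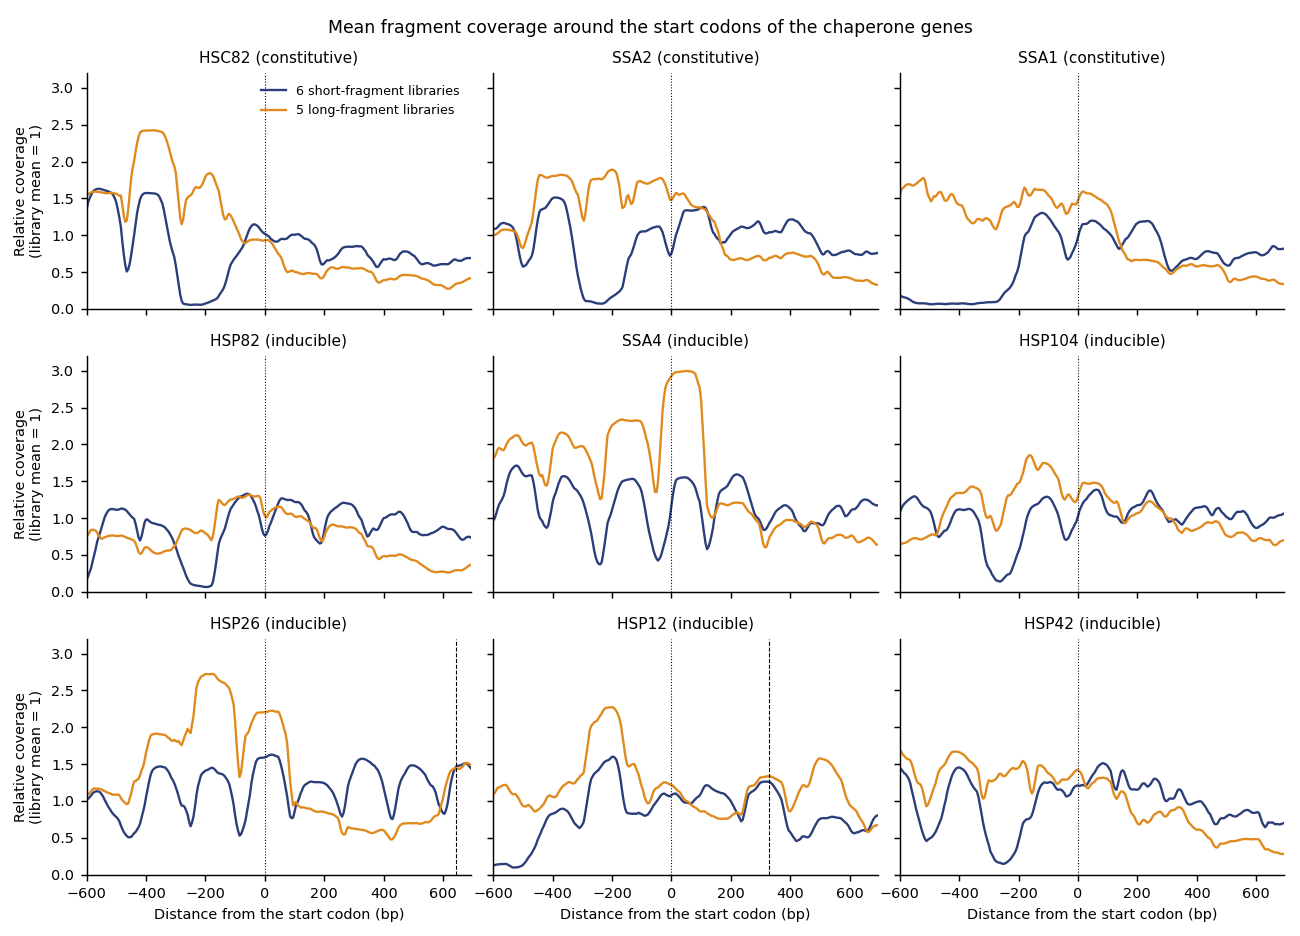
Mean relative coverage (library mean = 1) against distance from the start codon in bp for each gene, in the 6 short-fragment libraries (blue) and the 5 long-fragment libraries (orange). Dotted lines mark the start codon and dashed lines the end of a short ORF. The blue line drops under 0.3 upstream of HSC82, SSA2, SSA1, HSP82, HSP104 and HSP42 and at the left edge of HSP12, and stays above it at SSA4 and HSP26, while the orange line crosses the same places at higher coverage.

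Nucleosome peaks stood beside these gaps. HSC82 had peaks centred 399 and 36 bp upstream of its start codon, with heights of 1.57 and 1.15 in the short-fragment mean. SSA2 had them at 391 and 44 bp upstream (1.51 and 1.12), and HSP82 at 480 and 59 bp upstream (1.13 and 1.33). The first peaks of SSA1, HSP104 and HSP42 on the gene side of the gap lay 121, 107 and 95 bp upstream. At SSA4 and HSP26, where there was no gap, peaks ran across the promoter. They were centred 364 and 132 bp upstream and 45 bp downstream of the SSA4 start codon (heights 1.57, 1.53 and 1.55), and 351 and 177 bp upstream and 24 bp downstream of that of HSP26 (1.47, 1.45 and 1.63). HSP12 had a single tall peak 198 bp upstream (1.60) and a lower one 368 bp upstream (0.895). Peak positions varied over the 6 libraries by at most 29 bp in the SSA4 promoter, and by 62 bp at the HSP42 peak nearest its start codon.

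In the long-fragment libraries the same gaps were covered by fragments. Over the HSC82 gap, relative coverage was 1.55 in auxin high replicate 1, 1.93 and 1.31 in untreated low replicate 1 and high replicate 2, and 1.38 and 1.69 without OsTIR1, against 0.0663 to 0.144 in the short-fragment libraries. Over the 429 bp SSA1 gap it was 1.52 with auxin, 1.60 and 1.32 untreated and 1.50 and 1.11 without OsTIR1, against 0.0357 to 0.197. The HSP82 gap was the least filled of the 7 by its median, at 1.18 with auxin, 0.886 and 0.739 untreated and 0.566 and 0.609 without OsTIR1, against 0.0840 to 0.134. No gap had an overlap between long-fragment and short-fragment libraries. These gaps were defined in the short-fragment libraries, so the contrast describes them and is no test.

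Mean promoter coverage in the short-fragment libraries, taken over their 3 states, ran as follows in ascending order: 0.483 ± 0.0999 for SSA1, 0.755 ± 0.0850 for HSC82, 0.770 ± 0.118 for SSA2, 0.772 ± 0.0733 for HSP82, 0.825 ± 0.0798 for HSP104, 0.873 ± 0.108 for HSP42, 0.924 ± 0.200 for HSP12, 1.09 ± 0.0997 for HSP26 and 1.13 ± 0.0882 for SSA4 (SD, n = 6 each). The step from SSA1 to HSC82 was larger than the SD of both genes, and no other step between neighbours was. Over 500 bp SSA1 therefore stood at the bottom and its 8 followers formed a gradual order. The median over all ORFs was 0.898, and SSA1 stood at percentile 5.36 and SSA4 at percentile 92.5 of all ORFs. The place of SSA1 depends on the window, whose outer 250 bp lie in its wide gap. Over the 250 bp next to the start codon SSA1 averaged 0.723 with auxin, 0.822 untreated and 1.115 without OsTIR1. HSC82 was lower there, at 0.491, 0.458 and 0.607.

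In the long-fragment libraries SSA4 and HSP26 again had the highest means, 2.00 ± 0.294 and 1.95 ± 0.268 (SD, n = 5 each). HSP82 had the lowest, 0.875 ± 0.123, at percentile 8.95 of all ORFs, whose median was 1.35. HSC82 and SSA2, which were in the lower part of the order with short fragments, were at 1.63 ± 0.101 and 1.64 ± 0.142, and SSA1 was at 1.41 ± 0.157 (SD, n = 5 each).

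The constitutive promoters as a group were therefore emptier than the inducible ones with short fragments and mostly fuller with long ones. The median of the 3 constitutive promoters was 0.614 and 0.687 with auxin, 0.712 and 0.691 untreated and 0.774 and 0.895 without OsTIR1, where the median of the 6 inducible promoters was 0.818 and 0.769 with auxin, 0.930 and 0.916 untreated and 0.977 and 1.11 without OsTIR1. Constitutive was lower in each of these 6 libraries. In the long-fragment libraries the constitutive median was 1.59 with auxin, 1.69 and 1.41 untreated and 1.66 and 1.73 without OsTIR1, and the inducible median was 1.35 with auxin, 1.35 and 1.61 untreated and 1.47 and 1.34 without OsTIR1. Constitutive was higher in 4 of these 5 libraries, the exception being untreated high replicate 2. With 3 genes against 6 chosen by name, no test was made of this difference.

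**Figure D2:**
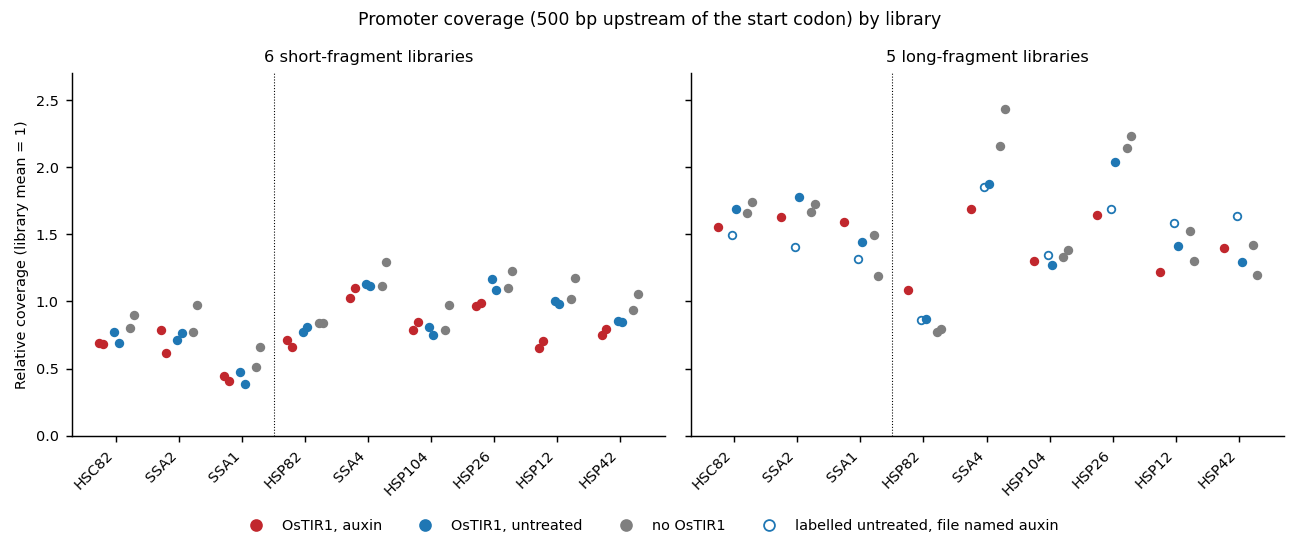
Relative coverage (library mean = 1) of the 500 bp promoter of each gene in every library, with short-fragment libraries on the left and long-fragment libraries on the right. Points are single libraries coloured by labelled state, the open circle is the library labelled untreated whose file is named auxin, and the dotted line parts constitutive from inducible genes. SSA4 and HSP26 are high in both panels, and HSP12 with auxin lies below its other short-fragment values.

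Bodies differed less between genes. In the short-fragment libraries HSC82 had the lowest body coverage, 0.821 ± 0.0914, followed by SSA1 (0.893 ± 0.0714), SSA2 (0.919 ± 0.104), HSP82 (0.928 ± 0.0526) and HSP42 (0.939 ± 0.0459), with HSP104 at 1.00 ± 0.0481 (SD, n = 6 each). HSP12 (1.07 ± 0.103), SSA4 (1.09 ± 0.0340) and HSP26 (1.24 ± 0.0834) were higher. The steps from HSP42 to HSP104 and from SSA4 to HSP26 were larger than the SD of both genes, and the other steps were not. The median of all ORFs was 1.05, and the 3 constitutive bodies stood between percentiles 6.56 and 17.4 of all ORFs. In the long-fragment libraries the median constitutive body was 0.791 with auxin, 0.470 in untreated low replicate 1, 0.917 in untreated high replicate 2 and 0.459 and 0.388 without OsTIR1. The median of all ORFs varied less over these libraries, from 0.760 to 0.872.

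The next comparison asked how the amount of nuclease changes the signal at these genes, with high-dose libraries set against low-dose ones. At the high dose promoter coverage was lower at 8 of the 9 genes and body coverage was higher at 8, all by limma across all ORFs with Benjamini-Hochberg adjustment at 0.05. Of all ORFs, 79.0% of promoters were called lower and 73.4% of bodies were called higher, so counts of this size are near what most genes show. The median log2 change was -0.82 over the 9 promoters and -0.58 over all promoters, and 0.62 over the 9 bodies and 0.36 over all bodies. Scaling to the median ORF body instead of the nuclear mean moved all of these medians by about the same amount (by -0.36 for all promoters and -0.35 for all bodies), so changes are also given relative to the median of all ORFs. With that scaling 9 member promoters were called lower, and 6 member bodies higher and 1, HSP12, lower, while of all bodies 2156 of 4294 called were higher, against 4383 of 5033 with the nuclear mean. The single matching auxin library had a term of its own in the fit and no low-dose partner, so it carries no weight in the dose estimates.

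Over 500 bp, the 3 constitutive promoters had the largest losses of the 9. Over the 250 bp next to the start codon the order was another, with log2 changes of -1.24 for SSA2, -1.13 for SSA4, -1.10 for HSC82, -1.002 for HSP26 and -0.72 for HSP104, and of -0.44 for SSA1. The SSA1 promoter was at 0.447, 0.475, 0.514 and 0.664 at the high dose (auxin, untreated and 2 without OsTIR1), and at 1.44, 1.50 and 1.19 at the low dose (untreated and 2 without OsTIR1). The groups did not overlap, and the log2 change was -1.18 (limma, SE 0.11, adjusted p 1.66e-09), which is -0.61 relative to the median of all promoters. The changes of SSA2 and HSC82 were -0.996 and -0.962 (limma, adjusted p 6.12e-09 and 1.88e-09), or -0.42 and -0.39 relative to that median. The inducible promoters SSA4 (-0.82), HSP26 (-0.82), HSP104 (-0.58), HSP42 (-0.42) and HSP12 (-0.38) were also called lower by limma, with adjusted p between 1.99e-08 and 0.000780. Relative to the median of all promoters their changes ran from -0.25 at HSP26 to 0.20 at HSP12.

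HSP82 was the exception. Its promoter was at 0.710, 0.775, 0.842 and 0.837 at the high dose and at 0.867, 0.772 and 0.794 at the low dose, so the groups overlapped. The log2 change was 0.01 (limma, SE 0.09, 95% interval -0.17 to 0.20, adjusted p 0.9003), which is 0.59 above the median of all promoters. The outer 250 bp and the 250 bp next to the start codon went opposite ways: the outer stretch averaged 0.817 ± 0.0313 (SD, n = 4) at the high dose and 0.575 ± 0.0640 (SD, n = 3) at the low dose, and the inner one 0.765 ± 0.100 at the high and 1.05 ± 0.125 at the low dose. These high-dose means include the auxin library, which was at 0.794 in the outer and 0.626 in the inner stretch. The direction at HSP82 therefore depends on the window and the scaling: it was -0.33 (limma, adjusted p 0.0102) for a promoter of 250 bp and -0.34 (limma, adjusted p 0.00291) when scaled to the median ORF body, and over 17 alternatives the adjusted p ran from 0.00291 to 0.999.

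Body changes with dose were 0.89 for SSA1, 0.83 for SSA2, 0.81 for HSP82 and 0.62 for both HSC82 and HSP42 on the log2 scale, all called higher by limma with adjusted p of at most 4.98e-05. HSC82 was at 0.936, 0.742, 0.797 and 0.778 at the high dose and at 0.476, 0.493 and 0.438 at the low dose. HSP104, SSA4 and HSP26 had smaller called changes of 0.51, 0.42 and 0.33. The HSP12 body was at 1.08 ± 0.131 (SD, n = 4) at the high dose and 1.02 ± 0.138 (SD, n = 3) at the low dose. The high-dose mean includes the auxin library (0.938), which has no weight in the fit. The fitted log2 change at HSP12 was 0.13 and did not pass (limma, adjusted p 0.176). It passed without the low-dose replicate 1 lacking OsTIR1, at 0.20 (limma, adjusted p 0.0267). Relative to the median of all bodies, HSP12 and HSP26 were at -0.23 and -0.02, and the other 7 were between 0.07 and 0.53.

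**Figure D3:**
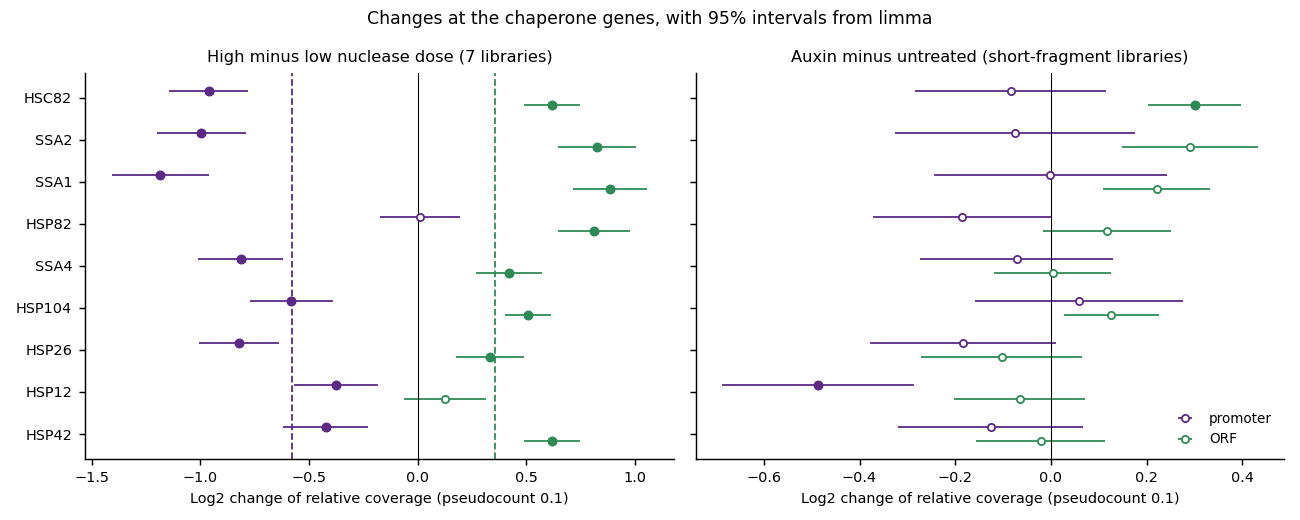
Log2 change of relative coverage (pseudocount 0.1) for the promoter (purple) and the ORF (green) of each gene, at the high against the low dose on the left and with auxin against untreated on the right. Bars are 95% intervals from limma, filled points passed an adjusted p of 0.05, and dashed lines on the left mark the median change of all ORFs. On the left the HSP82 promoter sits at 0.01 while the other promoters are negative, and on the right the HSP12 promoter and the HSC82 ORF stand apart.

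With auxin, which marks both topoisomerases for degradation, 1 member promoter changed relative to untreated cells in the short-fragment libraries: that of HSP12 fell. It was at 0.709 and 0.654 with auxin, at 1.01 and 0.981 untreated, and at 1.02 and 1.17 without OsTIR1. The auxin libraries lay below all 4 others, as they did at 16.2% of all promoters. This held at 6 of the 9 members: HSP12, HSP26, HSP42, SSA4, HSP82 and the constitutive gene HSC82. The log2 change was -0.49 (limma, SE 0.09, 95% interval -0.69 to -0.29, adjusted p 0.0262), and 0.0502% of all promoters were called lower in this comparison. The call was lost, with adjusted p between 0.0544 and 0.158, without either high-dose library lacking OsTIR1 and without either untreated library. Each of these fits leaves a state with 1 library, which is assumed to vary like the others. Without auxin high replicate 2 the call stayed (limma, adjusted p 0.0181), but 5.39% of all promoters were then called lower. The 250 bp next to the start codon alone gave -0.32 (limma, adjusted p 0.354), and over 17 alternatives, all negative, the adjusted p ran from 0.00234 to 0.9998. In the long-fragment libraries of undisputed auxin state the HSP12 promoter was at 1.22 with auxin, against 1.42 untreated and 1.52 and 1.305 without OsTIR1. The auxin library was the lowest of these, as it was at 60.3% of all promoters, and it alone was labelled high dose. The library of disputed state, labelled untreated high replicate 2, was at 1.58.

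The low coverage at HSP12 lay in an outer zone and next to the start codon, with a nucleosome between them. From 400 to 350 bp upstream, coverage was 0.285 and 0.422 with auxin, against 1.02 and 1.08 untreated and 1.12 and 1.29 without OsTIR1. From 450 to 400 bp upstream it averaged 0.242 with auxin and 0.909 in the 4 other libraries. That nucleosome, whose peak is 198 bp upstream, remained: from 250 to 200 bp upstream coverage was 1.65 and 1.09 with auxin, against 1.60 and 1.52 untreated and 1.50 and 1.69 without OsTIR1. Next to the start codon, in the last 50 bp of the promoter, coverage was 0.668 and 0.813 with auxin, against 1.25 and 1.09 untreated and 1.19 and 1.38 without OsTIR1. Both auxin libraries were low in the outer zone and at the start codon, and they overlapped with the others on the far side of the peak. From 200 to 150 bp upstream, on its near side, they were at 1.29 and 1.05 with auxin, against 1.34 to 1.46 in the 4 others.

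Seen in 50 bp windows, promoters of other inducible genes also held stretches with low coverage in the auxin libraries. No test was made on windows, a view added after the data were seen. Both auxin libraries lay below the other 4 short-fragment libraries in 32 of the 90 member windows and above them in 11. Over the promoters of all ORFs, 14.3% of windows were below in this sense and 14.7% above, so the members had 35.6% below and 12.2% above. HSP12 had 8 of its 10 windows below, HSP26 had 6, HSP82 and SSA4 had 5 each, HSC82, SSA1 and HSP42 had 2 each, and SSA2 and HSP104 had 1 each. At least 5 such windows were found in 4.92% of all ORFs, at least 6 in 1.91% and at least 8 in 0.201%. Counts as low as those of the other members were common: at least 2 were found in 39.8% and at least 1 in 61.6%. Windows of a promoter share fragments and are not independent of each other.

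At HSP82 the widest difference was in the nucleosome next to the gene. From 100 to 50 bp upstream, coverage was 0.943 and 1.04 with auxin, against 1.40 and 1.45 untreated and 1.51 and 1.45 without OsTIR1. In the gap itself the values overlapped: from 250 to 200 bp upstream, coverage was 0.0756 and 0.112 with auxin and 0.0592 to 0.108 in the others. At HSP42 the difference lay between the gap and the peak next to the gene and reached the far side of that peak. From 200 to 150 bp upstream, coverage was 0.396 and 0.355 with auxin, against 0.736 and 0.655 untreated and 0.979 and 1.11 without OsTIR1. From 150 to 100 bp upstream, HSP42 coverage averaged 0.76 with auxin and 1.35 in the 4 others, again without overlap. From 100 to 50 bp upstream the values overlapped. The HSP42 peak, centred 95 bp upstream in the mean, lay from 117 to 55 bp upstream in single libraries, so it reaches into both windows. At HSP26 the widest promoter difference was in the peak 351 bp upstream. There, coverage from 400 to 350 bp averaged 1.08 with auxin and 1.52 in the 4 others. Smaller differences without overlap lay elsewhere in this promoter. From 200 to 150 bp upstream the means were 1.31 with auxin and 1.47 in the others, and in the last 50 bp 1.34 and 1.56. Over the whole 500 bp these 3 promoters did not pass, with log2 changes of -0.19 for HSP82, -0.18 for HSP26 and -0.13 for HSP42 (limma, adjusted p 0.437, 0.461 and 0.607).

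In the gaps of the constitutive promoters some windows held slightly more fragments in the auxin libraries: 4 of the 10 windows of SSA1, 2 of HSC82 and 1 of SSA2 lay above all others, and so did 1 window in the gap of the inducible gene HSP104. The shares at HSC82, SSA2 and HSP104 are near the 14.7% of all promoter windows, and 11.9% of all ORFs had at least 4 such windows, as SSA1 did. From 300 to 250 bp upstream of HSP104, coverage averaged 0.232 with auxin and 0.159 in the 4 others. From 350 to 300 bp upstream of SSA1, coverage was 0.157 and 0.135 with auxin, against 0.0575 and 0.0266 untreated and 0.0251 and 0.0813 without OsTIR1. From 250 to 200 bp upstream of HSC82 it averaged 0.0875 with auxin and 0.0422 in the 4 others. These are small amounts on the scale of the library mean of 1. Over the whole promoters of HSC82, SSA2 and SSA1 the log2 changes with auxin were -0.08, -0.08 and 0.00 (limma, adjusted p 0.756 to 0.998). The intervals, at their widest -0.33 to 0.18 for SSA2, leave room for changes of that size.

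**Figure D4:**
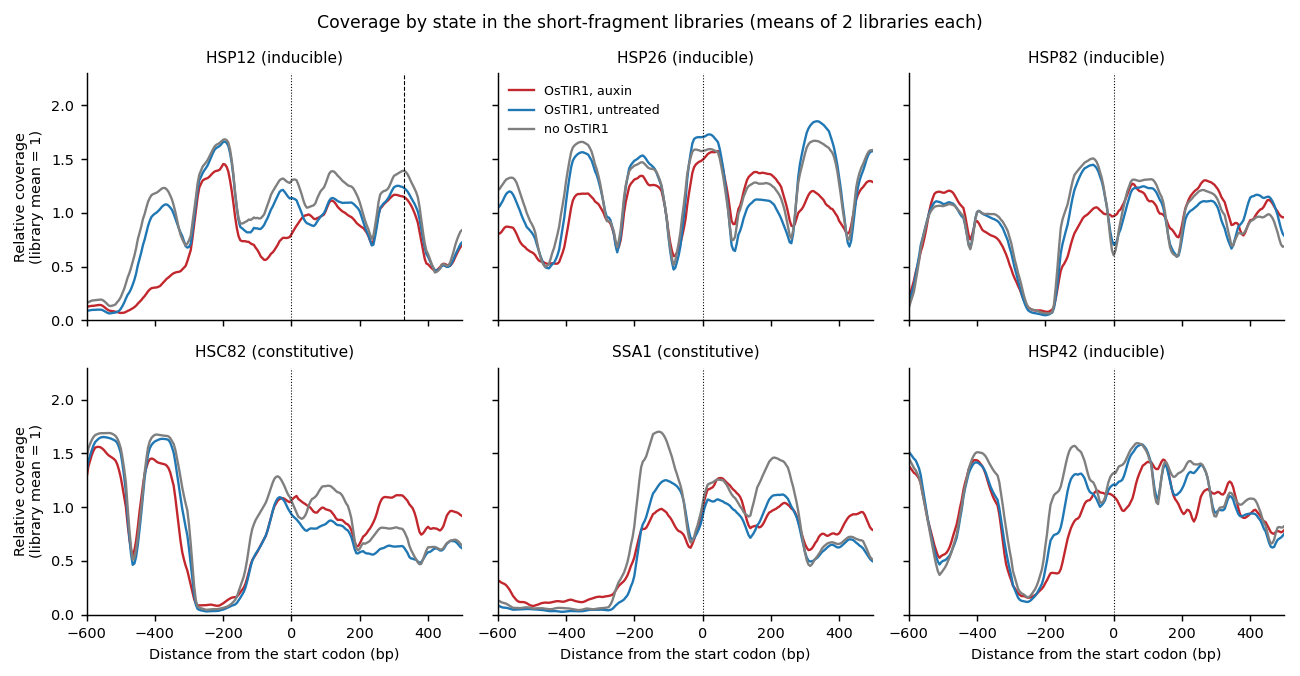
Relative coverage (library mean = 1) against distance from the start codon in bp for 6 of the genes in the short-fragment libraries, as means of 2 libraries per state: auxin (red), untreated (blue) and without OsTIR1 (grey). Dotted lines mark the start codon and the dashed line the end of the HSP12 ORF. The red line runs below the others from 450 to 350 bp upstream of HSP12, 350 bp upstream of HSP26, just upstream of the HSP82 start codon and 150 bp upstream of HSP42, and above them in the HSC82 ORF.

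Among the bodies, that of HSC82 rose with auxin and the other 8 did not pass. It was at 0.936 and 0.936 with auxin, at 0.742 and 0.739 untreated and at 0.797 and 0.778 without OsTIR1, so the auxin libraries were above all others, as they were at 20.6% of all bodies. The log2 change was 0.30 (limma, SE 0.04, 95% interval 0.20 to 0.40, adjusted p 0.0218), and 2.85% of all bodies were called higher. The call was lost, with adjusted p of 0.0618 and 0.0632, without either library lacking OsTIR1, and of 0.1602 and 0.169 without either untreated library. Over 16 alternatives the change was positive in all and the adjusted p ran from 0.00647 to 0.9997.

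The other constitutive genes had values close to the threshold. SSA2 was at 1.08 and 0.997 with auxin, 0.791 and 0.874 untreated and 0.901 and 0.870 without OsTIR1, 0.29 higher on the log2 scale (limma, adjusted p 0.0501, SE 0.06). SSA1 was at 0.991 and 0.937 with auxin, 0.798 and 0.827 untreated and 0.918 and 0.885 without OsTIR1, 0.22 higher on that scale (limma, adjusted p 0.0545, SE 0.05). In both genes the auxin libraries lay above all 4 others, as they did at HSC82 and at the inducible gene HSP104. Without auxin high replicate 2, all 3 constitutive bodies passed, but calls multiplied over the genome as well: 13.1% of all bodies were then called higher, against 2.85%. Without any 1 of the 4 libraries not treated with auxin, no member body passed. Among the inducible genes HSP104 and HSP82 had log2 changes of 0.13 and 0.12 (limma, adjusted p 0.1505 and 0.270), and SSA4, HSP42, HSP12 and HSP26 had values from 0.00 to -0.10. The median over the 9 bodies was 0.12, against 0.00 over all ORFs.

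With each ORF divided into 5 equal parts, the auxin libraries lay above the 4 other short-fragment libraries in 21 of the 45 member parts and below them in 6. The share over the parts of all ORFs is not given here, so these counts of parts cannot be set against the genome. At least 3 parts were above in 5 of the 9 genes and in 12.1% of all ORFs, and at least 1 part was below in 4 of the 9 genes and in 45.2% of all ORFs. The parts above were all 5 of HSC82, the first 4 of SSA2, the middle 3 of SSA1, the first 4 of HSP104, the middle 3 of HSP82 and the first 2 of SSA4. The parts below were part 4 of SSA4, parts 3 and 4 of HSP26, parts 1 and 5 of HSP42 and, by a margin under the third decimal, part 3 of HSP12. Parts of an ORF share fragments and were not tested. In part 2 of HSC82, coverage was 0.761 and 0.951 with auxin, against 0.621 and 0.581 untreated and 0.697 and 0.579 without OsTIR1. In part 3 of SSA2 it was 1.05 and 0.962 with auxin, against 0.722 and 0.767 untreated and 0.772 and 0.759 without OsTIR1. At the 3' end the Hsp70 genes overlapped between the states: part 5 of SSA1 was at 0.913 and 0.858 with auxin, against 0.876 and 0.896 untreated and 1.08 and 0.930 without OsTIR1.

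The long-fragment libraries gave wider differences at the same bodies, with 1 auxin library of undisputed state. By label that library is high dose and the 3 undisputed others are low dose, so auxin and labelled dose cannot be told apart here. The HSC82 body was at 0.854 in auxin high replicate 1 and at 0.476 in untreated low replicate 1, 2 libraries whose mean fragment lengths were 150.1 and 149.8 bp, and at 0.493 and 0.438 without OsTIR1. SSA2 was at 0.791 with auxin, against 0.470 untreated and 0.459 and 0.388 without OsTIR1, and SSA1 at 0.740 with auxin, against 0.438 untreated and 0.454 and 0.380 without OsTIR1. Among inducible genes HSP82 had 0.745 with auxin, against 0.499 untreated and 0.496 and 0.423 without OsTIR1, and HSP104 had 0.945 with auxin, against 0.656 untreated and 0.674 and 0.640 without OsTIR1. In these 5 genes the auxin library lay above the 3 others, as it did at SSA4 and HSP42, which makes 7 of 9, where it did so at 49.9% of all bodies. At HSP26 and HSP12 it lay below the 3 others, as at 26.2% of all bodies, with HSP26 at 0.744 with auxin, against 1.02 untreated and 1.07 and 0.894 without OsTIR1.

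The difference was wide in the middle of the Hsp70 ORFs. Part 3 of the SSA2 body was at 0.689 in the long-fragment auxin library, against 0.261 untreated and 0.231 and 0.154 without OsTIR1. The same part of SSA1 was at 0.665 with auxin, against 0.234 untreated and 0.226 and 0.184 without OsTIR1. The library labelled untreated high replicate 2, whose file is named as auxin-treated, had 0.697 and 0.825 in these stretches and whole-body values of 0.966 for HSC82, 0.899 for SSA2, 0.917 for SSA1 and 0.811 for HSP82. It lay nearer to the auxin library than to untreated low replicate 1 in these 4 bodies and in those of SSA4 and HSP104. At HSP26, HSP12 and HSP42 it lay nearer to untreated low replicate 1, with 0.996, 1.06 and 0.621. Of all bodies, 68.0% were nearer to the auxin library. By label it shares the high dose with the disputed library, and untreated low replicate 1 is low dose. Likeness in auxin state and likeness in labelled dose therefore cannot be told apart. The disputed library entered none of the main auxin fits, only the alternative over all 11 libraries.

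Whether the response to auxin differed between short-fragment and long-fragment libraries was tested with an interaction term over the 10 libraries of undisputed auxin state, a fit added after the data were seen. None of the 9 bodies and 9 promoters passed (limma, 0 called over all ORFs for both), and 5 bodies and 1 promoter were under an unadjusted p of 0.05, against 1189 bodies and 533 promoters of all ORFs. The estimates, short minus long, were -0.43 for the HSC82 body (adjusted p 0.112), -0.42 for SSA1 (0.149), -0.38 for HSP82 (0.183), -0.35 for SSA2 (0.219) and -0.34 for HSP104 (0.113). The promoter was that of HSP82, with an estimate of -0.48 (limma, adjusted p 0.544), which in long-fragment libraries was at 1.08 with auxin, against 0.867 untreated and 0.772 and 0.794 without OsTIR1. With 1 long-fragment auxin library, that library, its labelled dose and its state cannot be told apart.

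**Figure D5:**
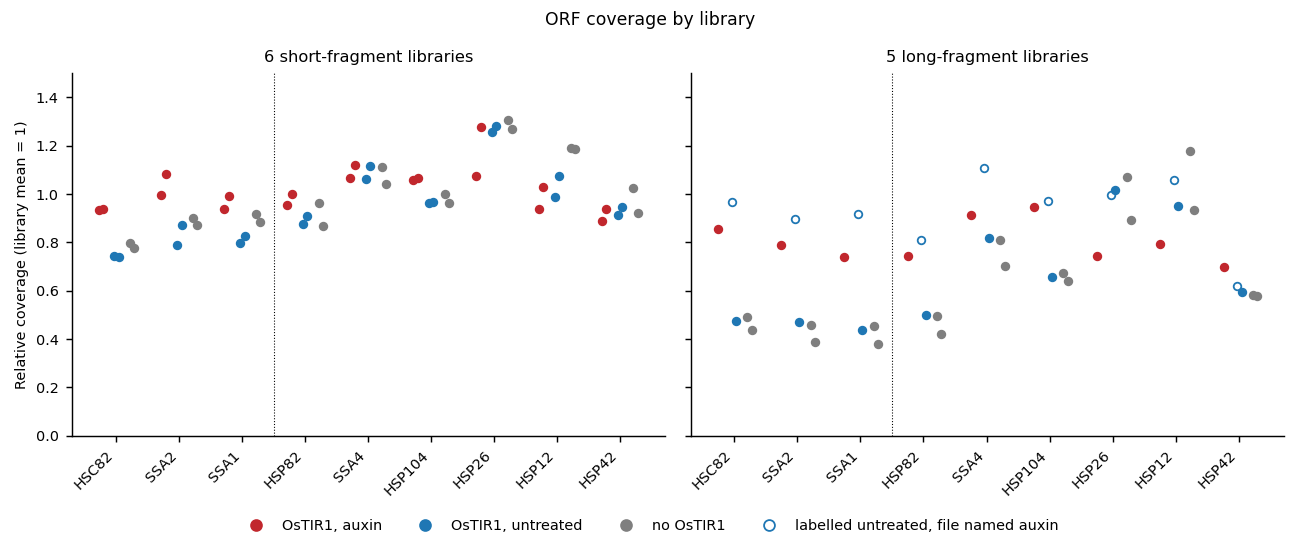
Relative coverage (library mean = 1) of the ORF of each gene in every library, with short-fragment libraries on the left and long-fragment libraries on the right. Points are single libraries coloured by labelled state, and the open circle is the library labelled untreated whose file is named auxin. At HSC82, SSA2, SSA1 and HSP82 on the right, the auxin point and the open circle lie above 0.7 and the other points below 0.5.

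Untreated cells with OsTIR1 were compared with cells lacking it in the short-fragment libraries. By label untreated low replicate 2 is low dose and the other libraries of this contrast are high dose, so strain and labelled dose are not balanced. No member passed (limma), and of all ORFs 0.0335% of promoters and 0.0168% of bodies did so in either direction. At an unadjusted p of 0.05, 2 member promoters and 2 member bodies would have passed, where 102 promoters and 177 bodies of all ORFs would. The SSA1 promoter had the largest change, with 0.475 and 0.386 untreated, against 0.514 and 0.664 without OsTIR1, a log2 change of -0.37 (limma, adjusted p 1.00). All 9 promoters and 8 of 9 bodies had negative estimates, where 70.6% of all promoters and 45.8% of all bodies did. One of the libraries without OsTIR1, high replicate 2, had the longest fragments of the short-fragment set (140.3 bp, against 129.0 to 133.6 bp in the others) and the highest promoter coverage at 8 of the 9 genes. Without it, the median over the member promoters was -0.06, against -0.16 with it, and that over all promoters was 0.01, against -0.04. Then 7 of 9 member promoters and 9 of 9 bodies had negative estimates, and 0 member promoters and 1 member body were under an unadjusted p of 0.05.

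Other chaperone and stress genes were counted in 4 lists. At the high dose, promoters were called lower at 6 of 9 Hsp90 co-chaperone genes, 10 of 11 other cytosolic Hsp70, Hsp110 and Hsp40 genes, 8 of 8 organelle chaperone genes and 9 of 10 stress regulators and other stress genes, and no promoter of the lists was called higher. These shares stand beside 79.0% of all promoters. MDJ1 (-2.12), the mitochondrial Hsp40, and ZUO1 (-1.75) and SIS1 (-1.48), which are cytosolic Hsp40s, had the largest log2 changes. Bodies were called higher at 7 of 9, 11 of 11, 8 of 8 and 8 of 10, with SSB2 (1.09) and SSB1 (1.00), the ribosome-associated Hsp70s, on top, where 73.4% of all bodies were called higher. With auxin no promoter of the lists was called and 2 bodies were called higher, where 2.85% of all bodies were: SSB1 at 0.38 (limma, adjusted p 0.0454) and KAR2, the Hsp70 of the endoplasmic reticulum, at 0.30 (limma, adjusted p 0.0233). List medians for auxin bodies were -0.02 for co-chaperones, 0.07 for the cytosolic group, 0.15 for organelle chaperones and -0.03 for stress genes, against 0.00 over all ORFs.

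Each promoter and early ORF was finally matched with the ORF of the genome whose profile was most like it, over 100 windows of 10 bp from 500 bp upstream to 500 bp downstream in the short-fragment mean. The correlation across windows was 0.95 for SSA1 with MNN4, 0.94 for HSP42 with GRS1, 0.93 for HSC82 with GSP2, 0.93 for SSA2 with CLB3, 0.92 for HSP82 with RPA190 and 0.92 for HSP104 with RPC11. It was lower for HSP26 with ARN1 (0.88), HSP12 with PFK1 (0.78) and SSA4 with VAM6 (0.78). Among the members alone, a far smaller choice than the genome, the closest pair was SSA2 with HSP42 (0.86), HSP82 was closest to SSA2 (0.79) and HSC82 to SSA2 (0.77), and HSP12 had a median correlation of -0.32 with the other 8. Along the bodies, paralogs correlated at 0.38 for HSC82 with HSP82, 0.37 for SSA1 with SSA2, 0.45 for SSA1 with SSA4 and 0.17 for SSA2 with SSA4, and 3 other pairs ranged from -0.08 to 0.33. These are descriptions across windows of the same libraries, which are not independent replicates.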

How the data were processed

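The deposited files hold fragment coverage per base, which the authors made from fragments kept between 95 and 225 bp, per the file headers; Bowtie2 and the build sacCer3 are named in the submitters' processing notes. Their order and settings, and the handling of fragments that match more than 1 place, are not given in the sources used here. Coverage was divided by each library's nuclear mean without the rDNA, so values carry no absolute scale. Depth limits counting error only. ORFs in the rDNA, or less than 1000 bp from the tip of a chromosome, were not analysed. Means over promoters and ORFs were tested as log2(value + 0.1), for features with a mean of at least 0.1, with limma 3.58.1 in R 4.3.3 across all ORFs, two-sided, with Benjamini-Hochberg adjustment at 0.05, and the test was checked on simulated data. The dose fit held state and dose, and the auxin and OsTIR1 contrasts came from a single fit of the 3 states. Profiles were smoothed over 21 bp, and a gap was sought within 1000 bp of the start codon. Python 3.11.15, numpy 2.4.6, scipy 1.17.1 and matplotlib 3.10.9 were used. The members and gene lists were chosen with earlier results of these data known. All members are named, with at most 3 called genes of each other list by size of change and the ORF most alike in profile. The comparisons of 50 bp windows and of parts of the ORF, which have no test, and the interaction fit were added after seeing the data. Alternatives were other pseudocounts, filters, scalings, promoter lengths, library sets, a replicate block and leaving out each library. A planned search for promoter motifs was not made, and no sequences are shown.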

Additional observations from a re-analysis of the deposited data

How the results depend on the processing

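With all 11 libraries and the labelled dose, the number of members called by limma for dose was 0 for promoters and 0 for bodies, against 8 and 8, and 0 promoters and 2 bodies were under an unadjusted p of 0.05. The HSP42 promoter then had a log2 change of 0.0102. With scaling to the median ORF body the dose changes of the HSP82 promoter (-0.34), the HSP26 body (-0.0237) and the HSP12 body (-0.23) had the opposite sign, by the construction of the scaling, and the HSP82 promoter was at -0.33 with a 250 bp promoter. Leaving out single libraries gave 8 promoters, and 8 to 9 bodies. For auxin, the number of member promoters called was 0, against 1, with a pseudocount of 1, a filter at 0.5, a 250 bp promoter, all 11 libraries, the 10 of undisputed auxin state, or the 7 matching ones, and 0 to 1 when single libraries were left out. The cause was not tested. Over all ORFs the promoters called for auxin numbered 36, against 2 with a pseudocount of 1, 1 with the filter at 0.5, 6 with trend and robust fitting, and 86 with the replicate block. Member bodies called for auxin numbered 2, against 1, with a pseudocount of 1, a filter at 0.5, trend and robust fitting, or the replicate block, 3 with the other scaling, and 0 with all 11 or the 7 matching libraries. They numbered 0 to 3 when single libraries were left out, and 0, 5 or 10 bodies of all ORFs were called, against 187, without an untreated library or one lacking OsTIR1. Without auxin high replicate 2 the calls over all ORFs rose to 1169 bodies, 782 of them higher, and to 685 promoters, 322 of them lower. The replicate block gave adjusted p of 0.00234 for the HSP12 promoter and 0.0448 for the SSA2 body, which it added to the calls. Replicate 1 minus 2 differences of the short-fragment libraries correlated between states at -0.154, 0.0166 and -0.257 over 5975 ORFs. In both OsTIR1 states this is also a difference in labelled dose, so the values cannot settle whether the numbers pair libraries. The HSC82 body kept its sign in 16 of 16 alternatives and passed in 10, and the HSP12 promoter kept it in 17 of 17 and passed in 7. Members called for OsTIR1 numbered 0 in every alternative run. With 2 libraries per state and 1 long-fragment auxin library of undisputed state, small changes could not be told from the spread.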
